A study of Danio rerio with 49 samples.

Results

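The 100 genes described here had their highest RNA level around the sphere stage of the zebrafish embryo, in the wildtype libraries that chose them. They were picked by their CPM in wildtype embryos, which is a gene's count scaled to a common library total. For each gene the mean CPM at sphere was compared with the highest mean at 4-cell, bud, 1 day post fertilization (dpf) or 5 dpf, after adding a pseudocount of 1 CPM to both. The 100 genes with the largest log2 ratio, of 32520 genes with values, are the members. Shield was not used to choose them, and neither was any mutant library.

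The study compared wildtype zebrafish with MZrlig1 zebrafish, whose embryos lack intact rlig1, which encodes an RNA ligase, both as maternal RNA from the egg and in their own genome. Whole embryos of both genotypes were raised in the dark and pooled, 10 to a library up to shield and 8 from bud on. There were 4 libraries of each genotype at 4-cell, 2 at sphere and 3 each at shield, bud, 1 dpf and 5 dpf. Heads at 5 dpf came from larvae kept in a light/dark cycle and sorted into good and bad responders in a behavioural test, with 8 heads to a library. Good responders gave 4 head libraries in wildtype and 2 in MZrlig1, and bad responders 3 and 4. The strain, the nature of the rlig1 allele and whether the pools of a group came from separate clutches are not given in the labels used here, so p-values measure only the spread between these pools, which may be technical.

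A newly fertilized zebrafish egg runs on RNA that the mother packed into it. The embryo's own genome stays almost silent during the early cleavages, which include the 4-cell stage, and is switched on in the blastula by maternal activators such as Pou5f3, Nanog and Sox19b. Sphere lies in the blastula soon after this zygotic genome activation, shield marks early gastrulation and bud its end. Genes that are active in this first wave include regulators of the body axis and of the extraembryonic layers, and many short, little-characterized genes.

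Library totals lay between 12158453 and 18355308 counts. The targeted gene rlig1 was at 1.34 to 69.0 CPM in the 12 wildtype libraries from 4-cell to bud and at 0.136 CPM or less in the 12 MZrlig1 libraries. Libraries that stood apart were replicates d and f of MZrlig1 at 4-cell, replicate a of MZrlig1 at shield and replicate a of MZrlig1 at 1 dpf. The last held counts for 7815 genes at a total of 14734987. The main counts of members called, and of members under 1 CPM at 1 dpf, are given with and without them. Percents of the sphere level and most values of single genes include them. The libraries hold poly(A)-enriched RNA, so more transcripts and longer poly(A) tails cannot be told apart. In pooled whole embryos fewer cells that express a gene and less RNA per cell cannot be told apart either.

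Few of the members are well-studied genes. Of the 100, 25 carry an identifier and no name in the deposited table, 32 are named after a clone or cDNA, and 14 have names made of znf, for zinc finger, and a number. The other members include regulators of early patterning, namely mxtx2, dharma, mixl1, ndr1 and vgll4l, and the receptors aplnrb and CXCR4. Members were short: the length implied by the authors' FPKM (fragments per kilobase, scaled to the library's depth) had a median of 1358 bases, against 1944 bases over the 10676 genes with at least 5 CPM at wildtype sphere. The range was 149 to 4967 bases, and 67 members were below that median.

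The rule's log2 ratio ran from 7.92 for ENSDARG00000115096 down to 2.27, with a median of 3.31. The members just inside were ENSDARG00000003197, CNOT4 and ODR4, each at 2.27. Just outside were si:dkey-50e6.6p at 2.26, SLC27A6 at 2.25 and vipr1a at 2.25. The members' mean level at wildtype sphere ran from 3.97 to 901 CPM, with 60 members at 50 CPM or more.

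A description of the members as zygotic alone went against the data for 15 of them. These 15 had a mean of at least 5 CPM at wildtype 4-cell, where RNA is maternal, and are called the maternally supplied members below. They include zgc:111868, LMAN1, a receptor that carries glycoproteins out of the endoplasmic reticulum, CNOT4, a ubiquitin ligase of the CCR4-NOT complex that shortens poly(A) tails, and BAG5, a co-chaperone of Hsp70. They also include EXOC5, a subunit of the exocyst, CITED2, a transcriptional co-regulator, and CXCR4, a chemokine receptor. The 85 others are called zygotic below by this cut at 5 CPM alone, and their median at wildtype 4-cell was 0 CPM. Some of them had counts at 4-cell, such as ndr1 with 78 over the wildtype libraries. For si:dkeyp-57a10.2 there were 37 in wildtype and 221 in MZrlig1. Of all 100 members, 46 had no count in any of the 4 wildtype 4-cell libraries, where the limit that a count of 0 allows (3 counts) was 0.191 CPM in replicate a.

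**Figure D1:**
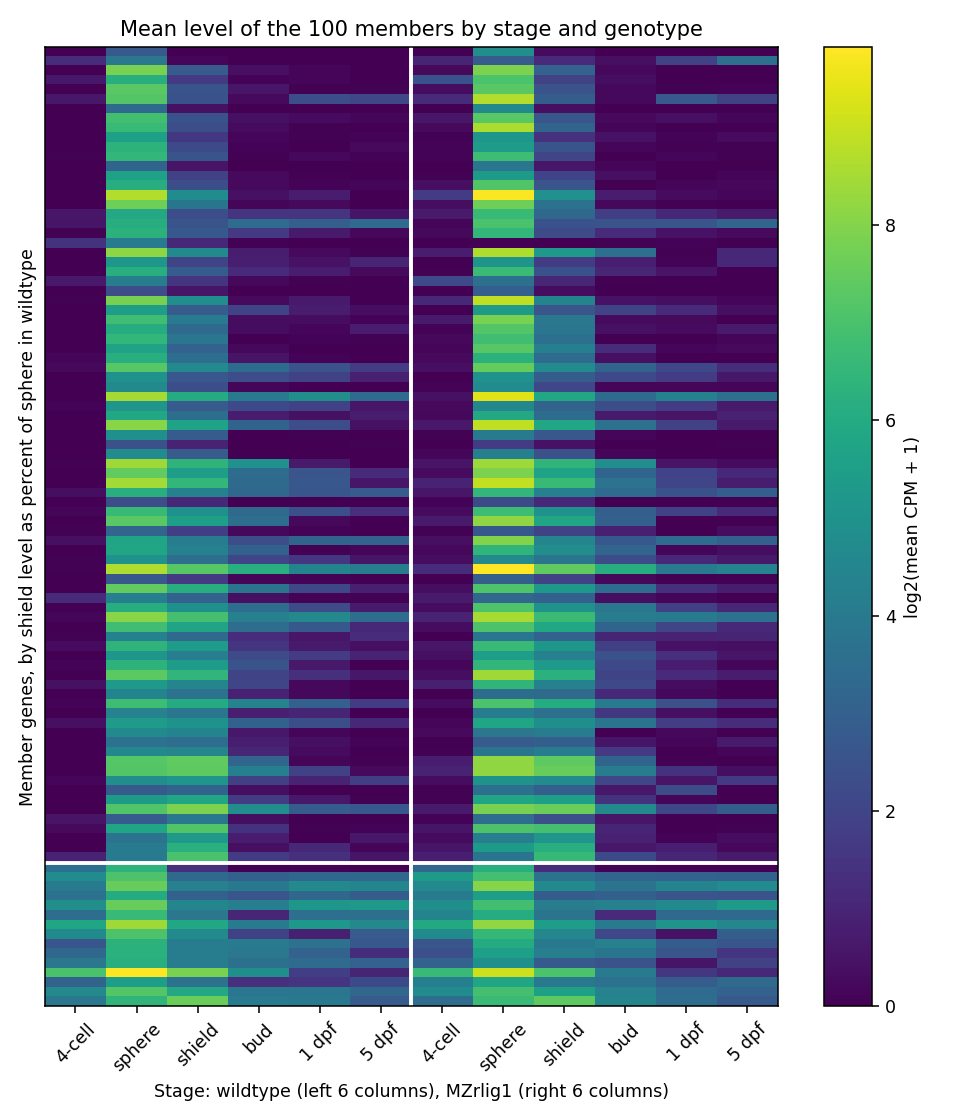
Mean level of the 100 members, as log2(mean CPM + 1) in colour, by stage for wildtype in the left 6 columns and MZrlig1 in the right 6. Each row is a gene, the 15 maternally supplied members are below the white line, and rows are ordered by the shield level as a percent of sphere in wildtype. The sphere columns are the brightest for most rows in both genotypes, and the lowest rows above the line are bright at shield.

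Onset between 4-cell and sphere was steep in both genotypes. In wildtype, where these values chose the members, the summed level of the 85 zygotic members was 6.43 to 22.9 CPM in the 4 libraries at 4-cell and 7801 and 7672 CPM in both at sphere. In MZrlig1, which the rule did not use, their sum was 13.0 to 69.8 CPM at 4-cell and 11517 and 12909 CPM at sphere. All 100 members together took 1.05% and 1.03% of the counts of the wildtype sphere libraries and 1.35% and 1.5% of those of the MZrlig1 sphere libraries. The 10 members with the highest CPM held 37.9% of that sum in wildtype and 39.4% in MZrlig1.

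The 15 maternally supplied members rose from an existing level. Their sum was 312 to 436 CPM at wildtype 4-cell and 2666 and 2579 CPM at wildtype sphere. In MZrlig1 it was 322 to 456 CPM at 4-cell and 1939 and 2077 CPM at sphere. Thus the MZrlig1 sphere sums lay above both wildtype ones for the 85 zygotic members and below both for the 15 others. Gene by gene, the median ratio of MZrlig1 to wildtype was 1.24 over the 85 and 0.822 over the 15. Over genes with at least 5 CPM at wildtype sphere it was 0.854, so the 15 lay close to all such genes. The wildtype sphere libraries chose the members, so these values are a description.

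**Figure D2:**
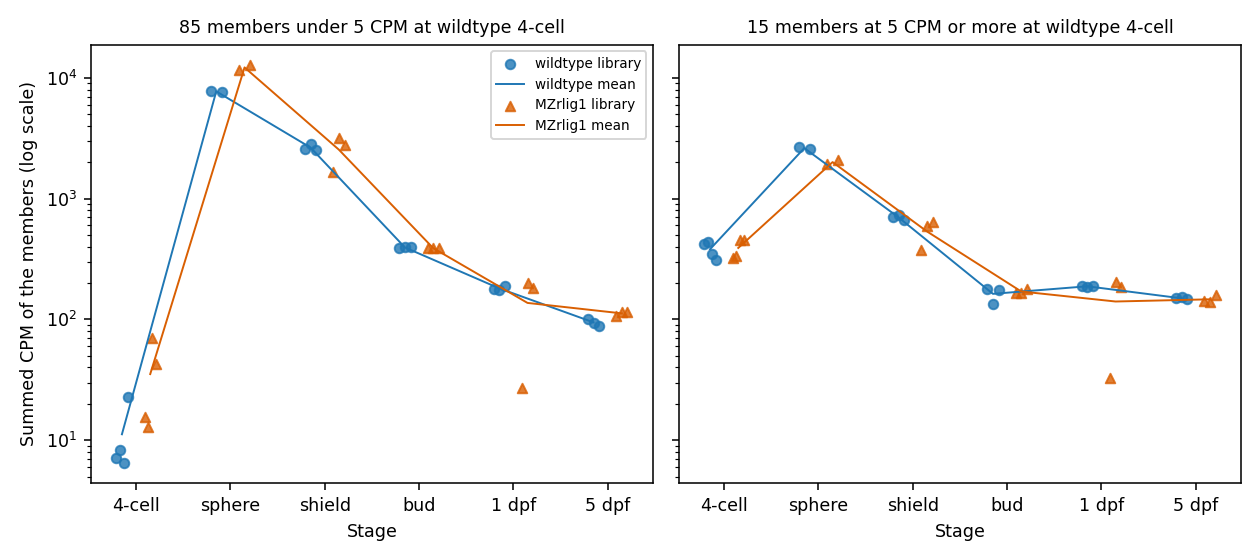
Summed CPM of the 85 zygotic members (left) and the 15 maternally supplied members (right) in each whole-embryo library, on a log scale, by stage. Points are libraries and lines join the group means. The 85 zygotic members go from at most 69.8 CPM in the 4-cell libraries to at least 7672 CPM in the sphere libraries, and the MZrlig1 library far below its stage at 1 dpf is replicate a.

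The onset was tested in MZrlig1 in a fit of its 12 libraries from 4-cell to bud, with edgeR's quasi-likelihood test and Benjamini-Hochberg adjustment over 18214 genes. Of the 99 members that passed the filter on low counts, 97 rose from 4-cell to sphere, while 24.5% of all genes tested rose. Most members passed the filter through their level at sphere itself, so this count is a description. The same holds for the p-values of single members at onset, given below. The members that did not pass the test were myo5ab, an unconventional myosin, and zgc:171679. The median log2 fold change was 8.38 over the members and 0.07 over all genes tested (fitted values). By the ratio of mean CPM, with members without a count at MZrlig1 4-cell set at 3 counts over the group, the median over all 100 members was 8.55 (log2), which is another measure and not a change of the fitted one. Scaled by total counts in place of TMM (trimmed mean of M values) the medians were 8.62 and 0.32, and the genes called split into 5286 higher and 2295 lower, against 4464 and 3098.

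The gene with the largest rule value, ENSDARG00000115096, was at 389 and 428 CPM in the wildtype sphere libraries and at 0 or 0.0714 CPM in those of 4-cell. Its MZrlig1 libraries held 0.812, 0.955, 4.09 and 3.51 CPM at 4-cell (replicates b, c, d and f) and 859 and 893 CPM at sphere. Every sphere library lay far above every 4-cell library, and both MZrlig1 sphere libraries above both wildtype ones. It rose by 8.33 ± 0.66 (log2, SE) in MZrlig1, with an adjusted p of 1.97e-06 by edgeR.

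A second unnamed gene, ENSDARG00000116570, was at 116 and 108 CPM at wildtype sphere and 249 and 209 CPM at MZrlig1 sphere. For zgc:100951 the same libraries held 230 and 220 CPM, and 430 and 502 CPM. The implied lengths of these 2 genes, 1201 bases each, and of ENSDARG00000115096, 1199 bases, were nearly equal, and the MZrlig1 level at sphere exceeded the wildtype level in all 3. Whether the 3 are copies of one gene was not analysed here, and reads of near-identical copies could be divided between them.

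Other members with large rule values had similar courses. At sphere si:dkey-25i10.1 was at 121 and 108 CPM in wildtype and 155 and 164 CPM in MZrlig1, and ENSDARG00000077712 was at 67.9 ± 3.39 CPM and 143 ± 15.1 CPM (SD, n = 2). For ENSDARG00000114187 the sphere libraries held 90.3 and 90.7 CPM in wildtype and 111 and 105 CPM in MZrlig1. The sphere level of ENSDARG00000107283 was instead lower in MZrlig1, at 41.8 and 39.6 CPM against 85.1 and 74.0 CPM. At shield these 4 genes were between 0.485 and 7.26 CPM in all 6 libraries.

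ENSDARG00000109703 differed from them at 4-cell. It was at 4.23, 3.82, 6.19 and 4.02 CPM in MZrlig1 and 0.127 to 0.811 CPM in wildtype there, with no overlap. The rule chose members for a low wildtype level at 4-cell, so this difference is a description. At sphere the gene was at 113 and 147 CPM in MZrlig1 and 70.8 and 73.1 CPM in wildtype. Its rise in MZrlig1 was 4.58 ± 0.41 (log2, SE; edgeR adjusted p = 9.09e-07), and from sphere to shield it fell by 4.89 ± 0.47 (adjusted p = 2.95e-06).

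Of the early regulators, mxtx2, a homeobox gene needed for the yolk syncytial layer, went from 0.214 CPM or less at wildtype 4-cell to 71.8 and 67.0 CPM at sphere. In MZrlig1 it was at 0 to 0.383 CPM at 4-cell and 92.6 and 63.3 CPM at sphere, so the genotypes overlapped. It rose by 8.38 ± 0.89 (log2, SE; edgeR adjusted p = 9.11e-06). The dorsal homeobox gene dharma, which helps to set up the organizer, was low throughout, at 4.96 and 3.09 CPM at wildtype sphere and 3.75 and 3.47 CPM at MZrlig1 sphere. It rose by 5.42 ± 0.98 (log2, SE; edgeR adjusted p = 0.000737).

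The gene vgll4l, of the vestigial-like family of transcriptional cofactors, was at 276 and 267 CPM at wildtype sphere and 366 and 364 CPM at MZrlig1 sphere. Its rise in MZrlig1 was 8.45 ± 0.85 (log2, SE; edgeR adjusted p = 1.77e-05). The interferon-stimulated gene isg15, which encodes a ubiquitin-like protein, was at 55.8 and 77.8 CPM in wildtype and 130 and 158 CPM in MZrlig1, and it rose by 10.44 ± 0.62 (log2, SE; edgeR adjusted p = 3.04e-08).

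Per length, the members with the highest level at wildtype sphere were nnr at 380 ± 27.0 FPKM (SD, n = 2), ENSDARG00000115096 at 340 ± 23.1, zgc:111868 at 321 ± 9.30, si:dkeyp-87d1.1 at 284 ± 28.4 and si:ch211-173m16.2 at 252 ± 22.8. At MZrlig1 sphere the same genes were at 744 ± 102, 731 ± 20.3, 188 ± 20.6, 285 ± 27.3 and 568 ± 139 FPKM. Neighbours in the wildtype order lay within or close to each other's spread. The length of si:ch211-173m16.2 is 149 bases, shorter than a usual fragment, so its FPKM is uncertain.

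The 4-cell libraries were not alike. Replicates d and f of MZrlig1 held counts for 65 of the 85 zygotic members each, while replicates b and c held counts for 20 and 25, and the wildtype libraries for 18 to 29. The summed count of these members was 1093 in replicate d and 672 in replicate f, against 266 and 190 in b and c. That is 0.572% and 0.351% of their summed level at MZrlig1 sphere. For vgll4l the 4 libraries held 0, 0, 2.62 and 0.957 CPM, and for the apelin receptor gene aplnrb 0, 0, 3.64 and 1.91 CPM.

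Other early genes were clearly higher in replicate d only, since replicate f was close to wildtype replicate f, at 8.94 CPM. The summed CPM of 20 other early zygotic regulators, those of a fixed list that are no members and were under 5 CPM at wildtype 4-cell, was 54.5 in replicate d and 9.25 in replicate f, against 2.55 to 8.94 in the other 6 libraries of the stage. Their part in the result was not tested. Without d and f, 99 of 99 members tested rose and their median log2 fold change was 10.51. Of all 18019 genes tested in that fit 5163 rose, and the median over all genes was 0.34. This count of members is a description too.

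**Figure D3:**
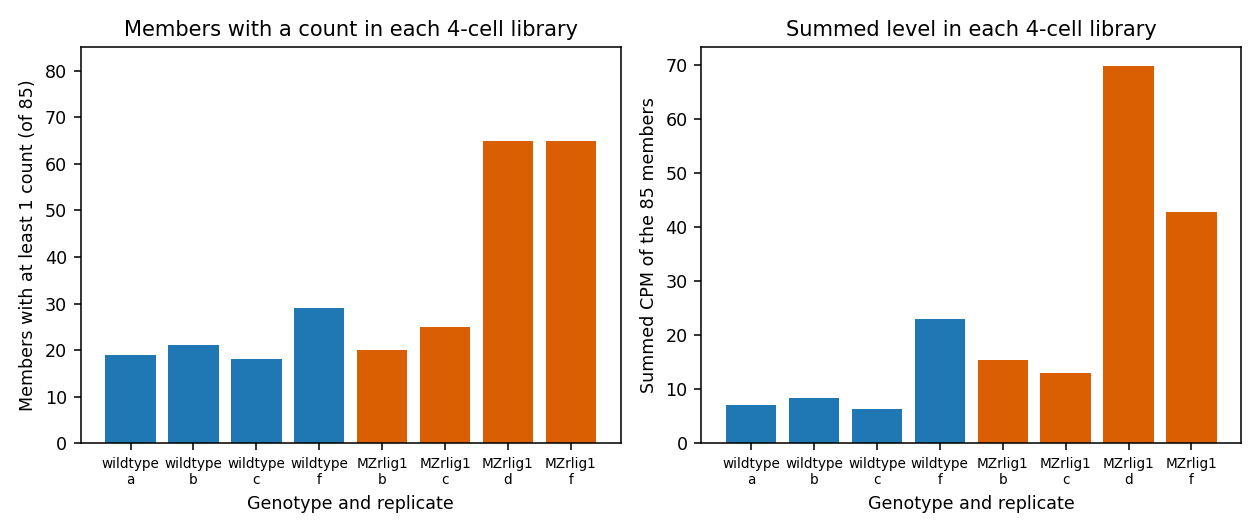
Members with at least 1 count (left, of the 85 zygotic members) and their summed CPM (right) in each of the 8 libraries of the 4-cell stage, wildtype in blue and MZrlig1 in orange. Replicates d and f of MZrlig1 stand above the others in both panels, at 65 members each and at 69.8 and 42.9 CPM.

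Without a count in any MZrlig1 4-cell library were 11 members, and 9 of these had none in wildtype 4-cell either. Against a limit of 3 counts over the MZrlig1 group, si:dkey-159n16.4 was at least 593-fold higher at sphere, znf1046 at least 661-fold and znf1058 at least 285-fold. No fold is given for the exception ENSDARG00000102022, described below, which was at that limit in both stages.

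By shield the level of most members was lower, and that of a minority was not. All members summed to 3214 to 3545 CPM in the wildtype shield libraries and to 2041, 3790 and 3413 CPM in those of MZrlig1. In wildtype, shield held a median of 21.8% of a member's level at sphere, against 52.6% over the 10676 genes with at least 5 CPM at sphere. In MZrlig1 the median was 20.5%, against 58.4% over the 10294 such genes. Under 10% were 27 members in wildtype and 32 in MZrlig1, of which 24 in both. Over all genes with at least 5 CPM at sphere, 9.66% in wildtype and 3.85% in MZrlig1 were under 10%. The rule chose members for a high level at wildtype sphere and a low one at wildtype bud. The comparisons of members with all such genes are therefore a description. Between 10% and 50% were 50 and 47 members. Higher at shield than at sphere were 12 members in wildtype and 7 in MZrlig1, of which 4 in both, namely mixl1, morc3b, CXCR4 and ENSDARG00000110967.

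In the MZrlig1 fit, 60 of the 99 members tested fell from sphere to shield and 3 rose, while 23.8% of all genes tested fell, 31.8% rose and 55.6% were called in all. Members passed the filter of this fit mostly through their sphere libraries, so the count and the p-values of members seen almost only at sphere are a description here too. The median log2 fold change was -1.68 over the members and 0.26 over all genes. With total counts the medians were -2.28 and -0.33, with 70 members lower and 2 higher, and the split of all called genes turned from 5796 higher and 4335 lower to 3908 and 6458. This comparison shares its sphere libraries with that of onset, so a sphere level that is high by error enters both. Replicate a of MZrlig1 at shield was low in most members: 91 of 100 were lowest there among the 3, as were 37.7% of the 9693 genes with at least 5 CPM. Without it 55 members fell and 4 rose, and their median was -1.43. Of all 18115 genes tested in that fit 3866 fell and 5199 rose, with a median of 0.20.

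**Figure D4:**
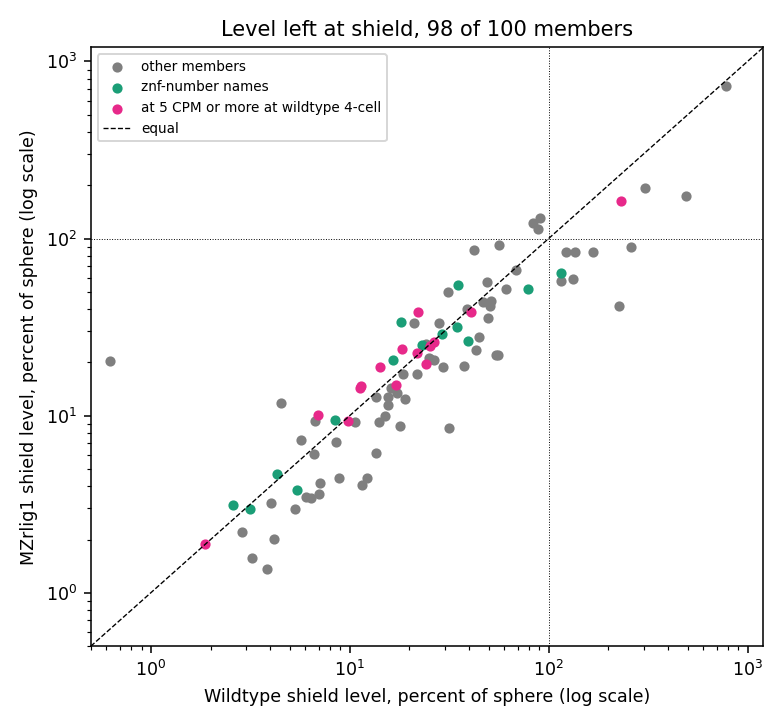
Level at shield as a percent of the level at sphere in wildtype (x axis) and MZrlig1 (y axis), both on log scales, for 98 members with a level above 0 in all 4 groups concerned. The dashed line marks equal percents and the dotted lines 100%. Most points lie between 1% and 100% on both axes, near the dashed line, and the point farthest to the left is zgc:171679.

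The maternally supplied gene si:rp71-45k5.2 was at 83.5 and 76.0 CPM at wildtype sphere and at 1.2 to 1.86 CPM in the 3 shield libraries. In MZrlig1 it went from 74.2 and 70.4 CPM to 0.763, 2.03 and 1.29 CPM, a fall by 5.11 ± 0.42 (log2, SE; edgeR adjusted p = 1.06e-06). For zgc:64022 the MZrlig1 sphere libraries held 337 and 492 CPM and the shield libraries 2.77, 9.81 and 7.02 CPM. It fell by 5.38 ± 0.47 (log2, SE; edgeR adjusted p = 1.86e-06) and was back at 4.89 to 6.99 CPM in all 3 MZrlig1 libraries at 1 dpf.

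The level of si:ch211-239d6.2 at MZrlig1 sphere, 321 and 452 CPM, lay above that at wildtype sphere, 83.1 and 114 CPM. Its shield libraries held 2.01 to 13.1 CPM in MZrlig1 and 3.17 to 5.56 CPM in wildtype, which overlap, and its fall in MZrlig1 was -5.04 ± 0.63 (log2, SE; edgeR adjusted p = 4.54e-05). The transglutaminase-like gene tgm2l was at 113 and 142 CPM at MZrlig1 sphere, 3.08 to 6.93 CPM at shield and 3.68 to 6.18 CPM at bud. It fell by 4.16 ± 0.51 to shield (log2, SE; edgeR adjusted p = 2.07e-05), and its change to bud was -0.11 ± 0.46 (adjusted p = 0.862).

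The members that were higher at shield include genes of gastrulation. The homeobox gene mixl1, a regulator of mesendoderm, was at 19.3 and 12.9 CPM at wildtype sphere and 114, 134 and 130 CPM at shield. In MZrlig1 it was at 17.7 and 8.38 CPM and then at 31.6, 141 and 112 CPM, with replicate a the low one, and all shield libraries lay above both sphere libraries. It rose by 3.47 ± 0.77 (log2, SE; edgeR adjusted p = 0.00247). At bud it was at 1.81 to 3.81 CPM over both genotypes, a fall by 4.88 ± 0.70 in MZrlig1 (log2, SE; edgeR adjusted p = 0.000173).

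The maternally supplied chemokine receptor gene CXCR4 (ENSDARG00000041959, a name shared by another identifier) was at 86.0 and 81.9 CPM at wildtype sphere and at 196, 196 and 188 CPM at shield. In MZrlig1 it was at 103 and 101 CPM at sphere and 130, 191 and 178 CPM at shield, a rise by 1.31 ± 0.21 (log2, SE; edgeR adjusted p = 0.000154). The third that rose, the unnamed ENSDARG00000110967, changed by 1.56 ± 0.52 (log2, SE; edgeR adjusted p = 0.0205), and by 0.95 with total counts, where it did not pass (adjusted p = 0.137). It also did not pass without MZrlig1 sphere replicate e or f or shield replicate b. For morc3b, of the MORC family of ATPases, wildtype went from 16.4 and 13.6 CPM to 74.2, 73.2 and 73.8 CPM. MZrlig1 went from 40.0 and 40.2 CPM to 39.0, 85 and 85 CPM, and the change of 1.40 ± 0.85 did not pass (edgeR adjusted p = 0.181). For si:ch211-139k8.4 the change in MZrlig1 was 0.99 ± 0.48 (edgeR adjusted p = 0.0905).

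Regulators of early patterning were spread over these classes. In MZrlig1, mxtx2 fell by 2.39 ± 0.72 (log2, SE; edgeR adjusted p = 0.0139), from 92.6 and 63.3 CPM to 1.25, 12.7 and 15.8 CPM, but did not pass without sphere replicate e (adjusted p = 0.0869). For vgll4l the change was -1.24 ± 0.72 (edgeR adjusted p = 0.165), for dharma -0.97 ± 0.85 (adjusted p = 0.347) and for nnr -0.18 ± 0.84 (adjusted p = 0.871). The Nodal ligand gene ndr1 was at 19.2 and 16.3 CPM at wildtype sphere and at 10.7 and 6.26 CPM at MZrlig1 sphere. Its shield libraries held 6.37 to 8.17 CPM in wildtype and 2.91 to 12.4 CPM in MZrlig1, and its change in MZrlig1 was 0.41 ± 0.61 (edgeR adjusted p = 0.584).

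The listed early zygotic regulators comprise 25 genes of the table, of which 4 are members. Of these, 20 rose and 1 fell from 4-cell to sphere, where 24.5% of all genes tested rose. From sphere to shield 16 rose and 1 fell, where 31.8% of all genes tested rose and 23.8% fell, with a median log2 fold change of 2.17 against -1.68 over the members. The rule chose members for a level at wildtype sphere far above bud, so this contrast with the members is a description. Of 9 listed genes of the yolk syncytial layer, 8 rose from sphere to shield and 1, the member mxtx2, fell. Of 12 listed genes of the enveloping layer, none of them a member, 9 rose. Of the 5 listed maternal activators in the table, none of them a member, 3 rose and 2 fell, and of 10 tested stress and immediate early genes 5 rose and 2 fell, the member isg15 by 2.84 ± 0.45 (log2, SE; edgeR adjusted p = 0.00015).

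Bud held a median of 3.18% of the sphere level in wildtype, a value the rule used, and 3.05% in MZrlig1. In the MZrlig1 fit, 85 of the 99 members tested fell and 14 did not pass, while 22.1% of all genes tested fell and 23% rose. The median log2 fold change was -3.19 over the members and 0.05 over all genes. With total counts it was -3.01 and 0.24, and the genes called split into 5099 higher and 3265 lower, against 4182 and 4026. The fall was seen with each library left out in turn, in 74 to 87 members. The rule chose members for a low level at wildtype bud, so the count and the members' p-values for this step are also a description.

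For nnr, the 3 MZrlig1 shield libraries held 132, 212 and 158 CPM and the bud libraries 7.64, 9.19 and 7.32 CPM, a fall by 4.58 ± 0.89 (log2, SE; edgeR adjusted p = 0.00223). Wildtype held 177, 168 and 165 CPM and then 5.81, 10.7 and 7.90 CPM, so the bud libraries of both genotypes lay far below their shield libraries. Its shield level was 115% of that at sphere in wildtype and 57.8% in MZrlig1. For si:dkey-11o15.10 the MZrlig1 bud libraries held no count, where their shield libraries held 2.64, 14.8 and 15.5 CPM.

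Among the 14 members that did not pass from shield to bud were 6 of the 15 maternally supplied members, ODR4, CNOT4, EXOC5, BAG5, GALK2 and ENSDARG00000003197. CNOT4 was at 117 and 109 CPM at MZrlig1 sphere, 12.6, 13.7 and 23.9 CPM at shield and 17.8 to 19.1 CPM at bud. It fell by 2.17 ± 0.28 from sphere to shield (log2, SE; edgeR adjusted p = 3.41e-05), and its change from shield to bud was -0.04 ± 0.26 (edgeR adjusted p = 0.904). ODR4, which in worms serves the trafficking of odorant receptors, fell by 1.54 ± 0.23 (edgeR adjusted p = 9.89e-05) and then changed by 0.13 ± 0.21 (adjusted p = 0.633).

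After bud, most members were near the limit of these libraries. Under 1 CPM were 46 members at wildtype bud, 59 at 1 dpf and 69 at 5 dpf, and 42, 59 and 66 in MZrlig1. Without replicate a of MZrlig1 at 1 dpf, whose 100 members summed to 59.6 CPM, 57 members were under 1 CPM. In heads at 5 dpf, 66 members were under 1 CPM in each of the 4 groups and 10 had no count in any of the 13 libraries. At 5 CPM or more in at least 1 head group were 17 members, of which 11 were among the 15 maternally supplied ones. The rule chose members for a low level at wildtype bud, 1 dpf and 5 dpf, so all these counts are a description. The same shares over all genes were not counted.

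The copy families could be traced only by name, since protein sequences were not used here. Of the 27 members with a name that ends in a dot and a number, 20 share the part before the dot with another gene of the table, and the 19 names concerned hold 40 genes that are not members. At wildtype sphere 13 of the 40 had at least 5 CPM and 21 were under 1 CPM. Most of these names denote a genomic clone, so sharing one shows where genes lie and not that they are copies. By the RefSeq gene table (assembly GRCz12tu), in which 31 members were matched by name, 1 pair of members lay within 9 genes of each other, zgc:163077 and bif1.1 with 8 genes between.

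The draculin-like genes drll.1, drll.2 and drll.3 differed in their time course, and only drll.3 is a member. At wildtype sphere their levels were 25.2 ± 0.965, 30.2 ± 3.72 and 98.0 ± 2.04 FPKM (SD, n = 2), and at MZrlig1 sphere 26.5 ± 3.71, 36.9 ± 2.26 and 95.8 ± 0.617 FPKM. At wildtype shield drll.3 held 24.3% of its sphere level, while drll.1 and drll.2 were at 133% and 123%. In MZrlig1 these were 25.5%, 181% and 118%. There drll.3 fell by 1.36 ± 0.48 (log2, SE; edgeR adjusted p = 0.0298), drll.1 rose by 1.47 ± 0.55 (adjusted p = 0.0354), and drll.2 changed by 0.85 ± 0.48 (adjusted p = 0.145). From shield to bud all 3 fell in MZrlig1, by 2.37 ± 0.49 for drll.1, 2.31 ± 0.44 for drll.2 and 1.84 ± 0.46 for drll.3 (log2, SE; edgeR adjusted p between 0.00082 and 0.00586). The rule chose drll.3 alone for a level at wildtype sphere far above bud, so the differing course is a description.

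The levels of bif1.1, a member, and bif1.2 also took different courses. At wildtype sphere bif1.1 was at 96.8 ± 11.3 FPKM and bif1.2 at 61.9 ± 12.6 FPKM (SD, n = 2). At shield bif1.1 held 6.71% and bif1.2 128% of that, and in MZrlig1 9.29% and 103%. In MZrlig1 bif1.1 fell by 2.83 ± 0.35 (log2, SE; edgeR adjusted p = 2.16e-05), and bif1.2 changed by 0.63 ± 0.45 (adjusted p = 0.245). The rule chose bif1.1 and not bif1.2 in the same way, so their differing course is a description too. The difference between the genes of a set was not tested.

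In the 1 set with 2 members, si:dkey-159n16.3 and si:dkey-159n16.4, both genes were seen almost only at sphere. The first was at 8.20 and 10.3 CPM at wildtype sphere and 23.3 and 25.3 CPM at MZrlig1 sphere, the second at 6.87 and 4.83 CPM and 25.1 and 31.1 CPM. Both had no count at 4-cell, and at shield they were at 0.63 CPM or less in every library. From sphere to shield in MZrlig1 they fell by 5.57 ± 0.75 and 6.30 ± 0.89 (log2, SE; edgeR adjusted p = 0.000257 and 0.0004).

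**Figure D5:**
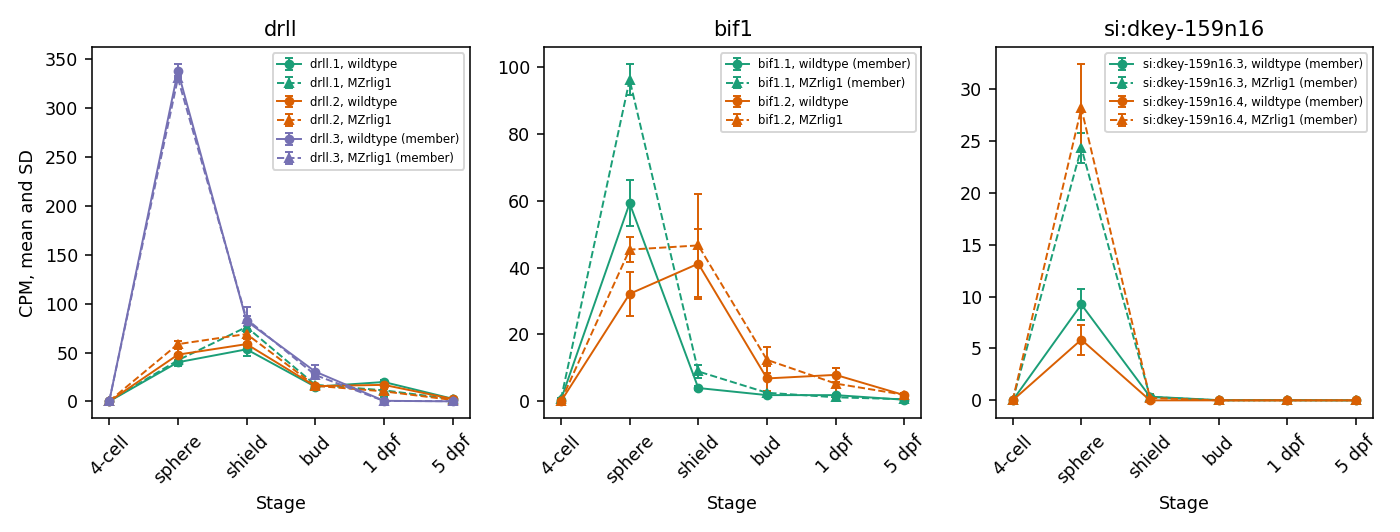
CPM (mean and SD over libraries) by stage for the genes of 3 name sets, with solid lines and circles for wildtype and dashed lines and triangles for MZrlig1. In the drll and bif1 sets the member, drll.3 or bif1.1, peaks at sphere and its partners are as high or higher at shield, while both members of si:dkey-159n16 are near 0 outside sphere. The rule chose the members for a high level at wildtype sphere, so this contrast is a description.

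The 14 members with znf names, a grouping made after their values were seen, belong to 175 genes of the table named znf1000 to znf1999, which are numbered zinc finger genes of zebrafish. Of the 175, 37.1% had at least 5 CPM at wildtype sphere, against 32.8% of all genes. The shield level of the 14 ran from 2.59% to 116% of that at sphere in wildtype, with a median of 20.6%. For the 51 such genes that are not members and had at least 5 CPM at sphere the median was 189%, and 37 of them were higher at shield. The rule chose members for a low level at bud, so these values are a description. In MZrlig1 all 14 rose at onset, where 24.5% of all genes tested rose. From sphere to shield 7 fell, where 23.8% of all genes did, and from shield to bud 11 fell, where 22.1% of all genes did. Reads of near-identical zinc finger genes could be divided between copies, since the counting method is not given in the sources used here.

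The fastest of them were znf1125 and znf1126. The first was at 239 and 222 CPM at wildtype sphere and 5.93, 7.46 and 4.51 CPM at shield, and in MZrlig1 at 232 and 240 CPM and then 3.26, 10.2 and 8.86 CPM. The second was at 167 and 145 CPM and then 4.89, 5.28 and 4.58 CPM, and in MZrlig1 at 157 and 161 CPM and then 1.87, 6.79 and 5.48 CPM. Wildtype and MZrlig1 libraries overlapped at shield in both genes. They fell in MZrlig1 by 4.38 ± 0.56 and 4.47 ± 0.59 (log2, SE; edgeR adjusted p = 3.87e-05 and 3.86e-05). At the other end znf1063, at 155 and 134 CPM at wildtype sphere and 144, 204 and 153 CPM at shield, changed by -0.05 ± 0.80 in MZrlig1 (edgeR adjusted p = 0.97).

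Whether the genotypes differed was tested at shield, where neither side had chosen the members. Of 95 members that passed the filter, 4 were lower and 1 was higher in MZrlig1, which is 5 members, while 1.74% of all 14903 genes tested were lower, 2.11% were higher and 3.84% were called in all. The median log2 difference, MZrlig1 minus wildtype, was -0.08 over the members and 0.02 over all genes. The direction turned without 1 library: 39 of the 95 members had a positive difference, against 69 of 96 without MZrlig1 shield replicate a. In the fit without it the members' median was 0.17, and 5 members were higher and 4 lower. Of all 15444 genes tested in that fit, 419 were higher and 371 lower. Leaving out any 1 of the 3 wildtype libraries ended all 5 calls, with adjusted p between 0.0598 and 0.209.

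The gene zgc:111868 was lower in MZrlig1, at 97.7, 147 and 149 CPM against 235, 246 and 208 CPM in wildtype, with no overlap. The difference was -0.78 ± 0.17 (log2, SE; edgeR adjusted p = 0.0382). With each MZrlig1 shield library left out in turn, the edgeR adjusted p ran from 0.0315 to 0.0583, so the call did not always hold. At sphere the gene was at 489 and 571 CPM in MZrlig1 and 920 and 883 CPM in wildtype. At bud it was at 13.7 to 18 CPM against 21.9 to 32.2 CPM. At 4-cell the genotypes overlapped, at 87.0 to 111 CPM in MZrlig1 and 71.4 to 162 CPM in wildtype. The rule used the wildtype values of sphere, bud and 4-cell, so the values at these stages are a description.

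The unnamed gene ENSDARG00000102022 was close to absent in MZrlig1. It had 54 counts over the 3 wildtype shield libraries, at 0.758, 1.2 and 1.48 CPM, and none over the 3 of MZrlig1. Against 3 counts over the group it was at least 17.2-fold lower (edgeR adjusted p = 0.0133). The gene passed the filter on low counts through its wildtype libraries alone. Its p-value and its place among the members called lower are therefore a description. At sphere it was at 15.8 and 14.8 CPM in wildtype and had 1 count in MZrlig1, a ratio of 445 (95% exact interval 79.6 to 17632.5, counting error only). The wildtype sphere libraries chose it as a member, so this ratio is a description. In wildtype 4-cell, 3 libraries held 0.0637 CPM or less and replicate f held 6.79 CPM.

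The unnamed ENSDARG00000003197, 1 of the 3 members just inside the threshold, was at 3.74, 7.42 and 6.34 CPM at MZrlig1 shield and 15.5, 18.5 and 16.8 CPM at wildtype shield. The difference was -1.50 ± 0.28 (log2, SE; edgeR adjusted p = 0.0201). Its MZrlig1 libraries were also below all wildtype ones at 4-cell, sphere, bud, 1 dpf and 5 dpf. The rule used the wildtype values of these stages, so this order is a description. At 1 dpf the MZrlig1 libraries include the deviating replicate a. The interferon-induced gene ifit8 was at 2.98, 3.29 and 6.71 CPM in MZrlig1 shield and 10.9, 15.7 and 15.6 CPM in wildtype shield (-1.68 ± 0.33; edgeR adjusted p = 0.0233). With each MZrlig1 shield library left out in turn, its edgeR adjusted p ran from 0.0135 to 0.0628, so the call did not always hold. At sphere ifit8 was instead at 9.85 and 11.0 CPM in MZrlig1 and 5.15 and 7.24 CPM in wildtype. The wildtype sphere libraries chose the members, so this difference at sphere is a description too.

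The 1 member that was higher in MZrlig1 at shield was bif1.1, at 10.5, 6.65 and 9.66 CPM against 4.34, 4.19 and 3.38 CPM, with no overlap (1.19 ± 0.28; edgeR adjusted p = 0.0468). Without MZrlig1 shield replicate a its difference was 1.04 (adjusted p = 0.0609), and without replicate c it did not pass either (adjusted p = 0.0647). With total counts it did not pass (adjusted p = 0.0594).

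At sphere the difference between the genotypes is a description, since the wildtype sphere libraries chose the members. The edgeR test called 52 members higher and 13 lower in MZrlig1, and 18.8% and 17.2% of all genes tested, or 36% in all, which says nothing about the members. With total counts these were 45 and 21 members, and the split of all genes turned from 2844 higher and 2589 lower to 1752 and 4154. With all early libraries of both genotypes in the fit 2 members were called, and 515 of all 19145 genes tested. The median ratio of MZrlig1 to wildtype CPM was 1.24 over the 85 zygotic members and 0.822 over the 15 maternally supplied ones, and 0.854 over genes with at least 5 CPM at wildtype sphere.

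The members with the highest ratio at sphere were si:dkey-159n16.4, at 4.81, and PHLDA3, a p53 target in mammals, at 4.68. The latter was at 45.9 and 59.6 CPM in wildtype and 195 and 298 CPM in MZrlig1. At shield its libraries overlapped, at 13.9 to 19.8 CPM in wildtype and 7.97 to 28.4 CPM in MZrlig1. The receptor gene aplnrb was at 345 and 463 CPM in wildtype and 740 and 1061 CPM in MZrlig1, and at shield at 148 to 157 and 162 to 188 CPM. A list chosen by the same rule on the MZrlig1 groups shared 71 of its 100 genes with the members.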

How the data were processed

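Poly(A)-enriched RNA of pooled zebrafish embryos or heads was sequenced, per the labels' protocols. The authors deposited read counts and FPKM per gene and library in a table of 37241 genes, of which 4721 have no value. STAR 2.7.10b, Salmon 0.14.1, DESeq2 1.42.1 and the build GRCz11 are named in the submitters' processing notes, without their roles. How reads were counted, the annotation and the strand setting are not given in the sources used here. CPM was computed from the deposited counts by each library's total, 12158453 to 18355308. Counting limits and intervals (3 counts for 0, 95% exact) cover counting error only, since reads are not independent molecules.

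Members were chosen with a pseudocount of 1 CPM. The members and gene lists were chosen with earlier results of these data known. Named were the members with the 15 largest rule values, the 5 highest FPKM, the 5 largest changes each way from sphere to shield, those called at shield, those of copy families or lists, and those next to the threshold. Other named members were chosen after their values were seen. Copy families were formed by names equal up to a final dot and number.

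Tests used edgeR 4.0.16 in R 4.3.3 (TMM, filterByExpr, robust quasi-likelihood fit, Benjamini-Hochberg, threshold 0.05) and were tested on simulated data. MZrlig1 stages were compared in 1 fit of 12 libraries, and genotypes in fits of the libraries compared. A standard error is the log2 fold change over the square root of F. DESeq2 1.42.0, other scalings, no filter, other libraries in the fit, the replicate letter as a block and each library left out were tried as alternatives. Total counts as the scale, and the fit without both deviating 4-cell libraries, were added after seeing the data.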

Additional observations from a re-analysis of the deposited data

Results flagged for a closer look

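In 4 of 32 sets of library values tested, 1 library lay far from the others. Chance gives about 1 in 20 for independent sets, but these sets share libraries, so the count cannot be set against that rate. Only groups of 4 to 10 libraries were tested, which left out MZrlig1 at shield and at 1 dpf. The summed level of the 85 zygotic members at wildtype 4-cell was 22.9 CPM in replicate f, and the next highest library was at 8.36 CPM. Replicate f alone of these held ENSDARG00000102022 at 6.79 CPM and zgc:171679 at 5.42 CPM, so that 2 members gave much of this sum. At the same stage si:rp71-45k5.2 was at 15.2 CPM in replicate a and at 10.1 CPM in the next highest library. In heads of wildtype good responders CNOT4 was at 26.9 CPM in 1 library and at 39.4 CPM or more in the other 3. In heads of MZrlig1 bad responders the 85 zygotic members summed to 104 CPM in replicate 4 and to 114 CPM or more in the others.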

How the results depend on the processing

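In the stage comparisons in MZrlig1, the counts of members higher, of members lower and of genes called stayed within 1.5 times under the alternatives run. The split of all called genes and the median over all genes did not, as given with total counts in the report, nor did the calls of ENSDARG00000110967 and mxtx2 from sphere to shield. Leaving out 1 library gave 95 to 98 members higher at onset, 47 to 63 lower from sphere to shield and 74 to 87 lower from shield to bud.

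The genotype comparisons moved more. That at shield called 573 genes, against 1234 with the DESeq2 Wald test, 860 with all early libraries in the fit and 85 to 790 with 1 library left out. Of the members, 1 was higher, against 0 with total counts, where 2829 genes had an unadjusted p under 0.05, 2 with DESeq2, 3 without the filter on low counts and 0 to 5 with 1 library left out. Lower were 4, against 2 with all early libraries and 0 to 4 with 1 library left out. At sphere 5433 genes were called, against 515 with all early libraries and 3036 to 6631 with 1 library left out. There 52 members were higher and 13 lower, against 2 and 0 with all early libraries, where 3060 genes had an unadjusted p under 0.05. With total counts 21 were lower, and with 1 library left out 6 to 21.

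Replicate letters did not pair the samples: deviations of same-lettered shield libraries correlated between genotypes at -0.203, 0.045 and -0.094, and those of MZrlig1 shield and bud at -0.041, 0.079 and 0.101. A replicate block by letter called 345 genes in the genotype comparison at shield, with 0 members higher and 3 lower, and from shield to bud in MZrlig1 8853 genes with 83 members lower.

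Membership depended on the rule: 58 of the 100 genes stayed with shield among the stages to exceed, 80 and 84 with a pseudocount of 0.1 or 5 CPM, and 93 with FPKM. Over the named genes, 1811 results kept their call, 13 passed the threshold under the alternative and 90 no longer passed. With 2 libraries per genotype at sphere, and near-identical copies counted by an unstated method, the level of single copies is limited.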

Other observations

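Some members differed between genotypes at stages where the report makes no comparison, and these values have no test. The rule used the wildtype values of these stages and chose members for a low level there. Wildtype was therefore low by choice, and the higher MZrlig1 levels given here are a description. The zinc finger gene znf1050 was at 0.735 ± 0.225 CPM (SD, n = 3) at wildtype bud and at 11.1 ± 4.80 CPM at MZrlig1 bud. GALK2, an N-acetylgalactosamine kinase, was at 1.57 ± 0.650 CPM at wildtype bud and 12 ± 1.87 CPM at MZrlig1 bud (SD, n = 3).

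The gene zgc:171679 was at 0, 0.0649 and 0 CPM at wildtype 5 dpf and at 10.7, 10.6 and 13.0 CPM at MZrlig1 5 dpf. That is 1 count against 489, a ratio of 484 (95% exact interval 86.4 to 19147.1, counting error only). The rule chose members for a low level at wildtype 5 dpf, so this ratio is a description. In heads, which came from other larvae, the 4 groups had means of 1.49 to 2.73 CPM for zgc:171679. At 4-cell it had no count in 6 of 8 libraries and was at 5.42 and 4.15 CPM in replicate f of wildtype and of MZrlig1.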
